A study of Mus musculus with 281 samples.

Results

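The interferon regulatory factor (IRF) genes Irf1, Irf2, Irf4, Irf5, Irf7, Irf8 and Irf9 were followed in single bone marrow cells of mice of the inbred strain C57BL/6. Earlier results of these data were known when the 7 genes were chosen. They were taken by symbol, not by a cut on their values, from a table of 43280 gene symbols. Of these symbols, 17830 were above 0 in at least 1 cell, and 6 of the 7 IRF genes were among them; Irf4 was listed at 0 in every cell. Irf3, another gene of the family, is given by level only.

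The study addressed the heterogeneity of granulocyte-monocyte progenitors (GMPs), and the cells carried 6 cell type labels. CMP (47 cells), Ly6C-GMP (45 cells) and Ly6C+GMP (95 cells in one stretch of the sample titles and 10 in another) were gated as cells without lineage markers or Sca-1 and with c-Kit and CD34. CMP cells had low CD16/32, a pair of Fc receptors; both GMP gates had high CD16/32 and were separated by Ly6C, a surface protein of the monocyte lineage. The preNeu gate (31 cells) was lineage-negative with Gr1, CD11b, c-Kit and CXCR4 present and CD115 and SiglecF absent. The tpMo gate (31 cells) was lineage-negative with CD115, CXCR4 and Ly6C present and c-Kit absent. For proneu (22 cells) the gate given was that of Ly6C+GMP in 21 cells, and 1 cell had no gate. How the proneu label was then assigned is not stated; had it been assigned from these transcriptomes, part of any proneu difference would follow from the assignment. No treatment, genetic change or age was given for any label.

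Each sample was 1 cell and no animal was named, so each label counts as 1 sample. No test was therefore made, no difference was checked in replicates, and SDs are over cells. Sample titles fell into 4 runs, called A, B, C and H here. The 95 Ly6C+GMP cells made up run A. CMP and Ly6C-GMP cells were spread over run B (31 and 30 cells, with 1 proneu cell) and run H (16 and 15 cells). The other 10 Ly6C+GMP cells were in run C, together with 21 proneu cells and all preNeu and tpMo cells. The titles do not say whether these runs were batches. Levels are in TPM, a relative transcript abundance scaled for transcript length and for the total of the cell.

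IRF proteins are transcription factors that share an N-terminal DNA-binding domain and bind variants of the interferon-stimulated response element (ISRE). Irf8 acts with the ETS factor PU.1, the product of Spi1, and is required for normal monocyte and dendritic cell development, while its loss in mice expands neutrophils. Irf5 and Irf7 carry signals from endosomal Toll-like receptors, Irf9 is the DNA-binding subunit of the complex ISGF3, Irf1 activates many interferon gamma targets, Irf2 competes for the same sites, and Irf4 serves lymphocytes and some dendritic cells.

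The read depth of a cell cannot be recovered from TPM. Between 1487 and 5719 genes per cell reached 1 TPM, with medians by label from 2373 in preNeu cells to 4829 in Ly6C+GMP cells. The 4 housekeeping genes looked up were above 0 in every cell. The summed level of 4 neutrophil markers (Ngp, Ltf, Camp, Lcn2) had a median of 216500 TPM in preNeu cells and of at most 156 TPM in the other labels. In proneu cells it was 129.6 TPM. The sum of 4 monocyte markers (Csf1r, Ly6c2, F13a1, Ccr2) had its highest median, 12550 TPM, in tpMo cells. This sum was not particular to them, with medians of 9131 TPM in Ly6C+GMP, 7778 TPM in proneu and 2665 TPM in preNeu cells. Single markers differed more: in preNeu cells only 1 of the 4 genes averaged 1 TPM or more. F13a1 averaged 1915 TPM in tpMo, 480 TPM in Ly6C+GMP, 48.5 TPM in proneu and 0.854 TPM in preNeu cells. Ccr2 averaged 752, 71.6, 7.8 and 0.38 TPM in the same order. Of the 5 dendritic cell markers (Siglech, Cd209a, Xcr1, Clec9a, Ccr9), whose lineage also uses Irf8, Irf4 and Irf7, none was above 0 in any CMP, proneu, preNeu or tpMo cell; the highest sum was 0.96 TPM in Ly6C+GMP cells and 100.6 TPM, from Clec9a, in Ly6C-GMP cells.

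The genes lie on 6 chromosomes, by GENCODE M21 on the build GRCm38. Irf1 spans chromosome 11, 53770014 to 53778374 on the plus strand. Irf2 spans chromosome 8, 46739732 to 46847458, plus strand. Irf4 spans chromosome 13, 30749226 to 30766976, plus strand. Irf5 spans chromosome 6, 29526625 to 29541871, plus strand. Irf7 spans chromosome 7, 141262706 to 141266481, minus strand. Irf8 spans chromosome 8, 120736358 to 120756694, plus strand. Irf9 spans chromosome 14, 55603571 to 55610030, plus strand. The kit does not mark strand, so reads where Irf5 overlaps Tnpo3, Irf7 overlaps Phrf1, Irf1 overlaps Gm17334 or Irf2 overlaps Gm45479, Gm31172 and Gm45481 on the opposite strand cannot be told apart by strand. Irf9 overlaps Rnf31 and Irf8 overlaps Gm20388 on the same strand, which leaves those values less certain.

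RefSeq promoter windows of GRCm38.p6, from 250 bases before to 50 after a start site, were at hand for all 7 genes, as 10 windows in all. They were searched on both strands for the ISRE core GAAANNGAA, which IRF proteins bind, and for the core TTCNNNGAA of the gamma-activated site (GAS), an element of interferon gamma signalling, which reads the same on both strands. Of 32851 windows of this length, 8.56% held the ISRE core and 8.30% the GAS core. The windows of Irf8, Irf1 and Irf5 are shown because these genes differed most between the labels. Capitals mark the GAS core. The Irf8 window is chr8:120736108-120736407, the Irf1 window chr11:53769764-53770063 and the Irf5 window chr6:29526375-29526674, all on the plus strand.
Irf8: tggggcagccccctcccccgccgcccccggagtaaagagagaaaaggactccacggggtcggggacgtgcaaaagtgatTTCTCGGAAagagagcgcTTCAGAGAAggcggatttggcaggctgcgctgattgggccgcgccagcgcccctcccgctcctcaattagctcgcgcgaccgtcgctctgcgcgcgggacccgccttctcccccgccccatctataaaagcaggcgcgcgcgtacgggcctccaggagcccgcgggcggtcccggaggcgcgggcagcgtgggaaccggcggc
Irf1: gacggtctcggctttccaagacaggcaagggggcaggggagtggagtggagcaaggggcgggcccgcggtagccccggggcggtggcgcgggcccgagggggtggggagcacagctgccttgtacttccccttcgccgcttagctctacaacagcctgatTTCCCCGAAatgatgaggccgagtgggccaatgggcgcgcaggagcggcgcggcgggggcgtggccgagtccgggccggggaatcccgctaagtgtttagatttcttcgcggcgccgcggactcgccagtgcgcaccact
Irf5: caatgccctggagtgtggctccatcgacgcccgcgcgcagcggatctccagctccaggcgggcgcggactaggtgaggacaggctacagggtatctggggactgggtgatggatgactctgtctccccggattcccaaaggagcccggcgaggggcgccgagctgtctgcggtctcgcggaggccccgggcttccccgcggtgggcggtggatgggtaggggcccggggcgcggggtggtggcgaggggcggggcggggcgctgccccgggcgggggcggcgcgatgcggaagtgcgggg
The Irf8 window held the GAS core at positions -171 and -153 from the start site, and the Irf1 window held it at -90. The Irf5 window held neither core. Irf2 held an ISRE core at -241 and a GAS core at -224 from its first start site, and no match was found in the windows of Irf4, Irf7 and Irf9. A match says only that these letters are present, and no match says nothing of the factors.

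Irf8 was high in Ly6C+GMP and tpMo cells, intermediate in CMP and Ly6C-GMP cells and low in proneu and preNeu cells. In Ly6C+GMP cells it ranged from 0 to 1353 TPM with a median of 344 TPM, and in the 31 tpMo cells from 0 to 955 TPM with a median of 279 TPM. In the 47 CMP cells the range was 0 to 1294 TPM and the median 1.31 TPM; in the 45 Ly6C-GMP cells the range was 0 to 759 TPM and the median 0.640 TPM. No proneu cell was above 7.64 TPM and no preNeu cell above 10.5 TPM. The means were 368 ± 361 TPM (mean ± SD over cells) in Ly6C+GMP and 339 ± 289 TPM in tpMo cells, against 151 ± 277 TPM in CMP, 87.6 ± 156 TPM in Ly6C-GMP, 1.08 ± 1.98 TPM in proneu and 1.25 ± 2.60 TPM in preNeu cells. Every pair of labels overlapped at low values.

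Irf8 levels were split rather than graded. Over all cells, 148 were below 10 TPM, 119 were at 100 TPM or more and 14 lay between. The CMP cells held 30 below 10 TPM, 14 at 100 TPM or more and 3 between, so their mean describes few of them. The tpMo cells held 7, 23 and 1 in these ranges. Such a gap was not particular to Irf8. Over all cells, 8 lay between 10 and 100 TPM for Irf5, 27 for Irf1, 20 for Irf9 and 0 for Irf7. At 100 TPM or more there were 39, 57, 47 and 9 cells. Irf2 differed, with 63 cells between and 5 at 100 TPM or more. How common the gap is over all genes was not counted. A cell at 1 TPM or more is called detected here, and the share of such cells is given with its exact Clopper-Pearson 95% interval, which covers counting error only. Irf8 was detected in 28 of 31 tpMo cells (90.3%, interval 74.3 to 97.96%), in 87 Ly6C+GMP cells (82.9%, 74.3 to 89.5%), and in 26 of 47 CMP cells (55.3%, 40.1 to 69.8%). Among Ly6C-GMP cells 19 of 45 had it (42.2%, 27.7 to 57.9%). It was detected in 7 of 22 proneu cells (31.8%, 13.9 to 54.9%) and in 7 of 31 preNeu cells (22.6%, 9.59 to 41.1%). In this order only the Ly6C+GMP and CMP neighbours had intervals that did not overlap.

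The Ly6C+GMP cells differed in Irf8 by title run. In run A, 85 of 95 cells had Irf8 and the mean was 402 ± 362 TPM. In run C, 2 of 10 cells had it, at 373 and 67.03 TPM, and the mean was 44.1 ± 118 TPM. The 31 run C cells of the Ly6C+ gate, labelled Ly6C+GMP or proneu, held 2 cells at 10 TPM or more. The part of the run in this was not tested.

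**Figure D1:**
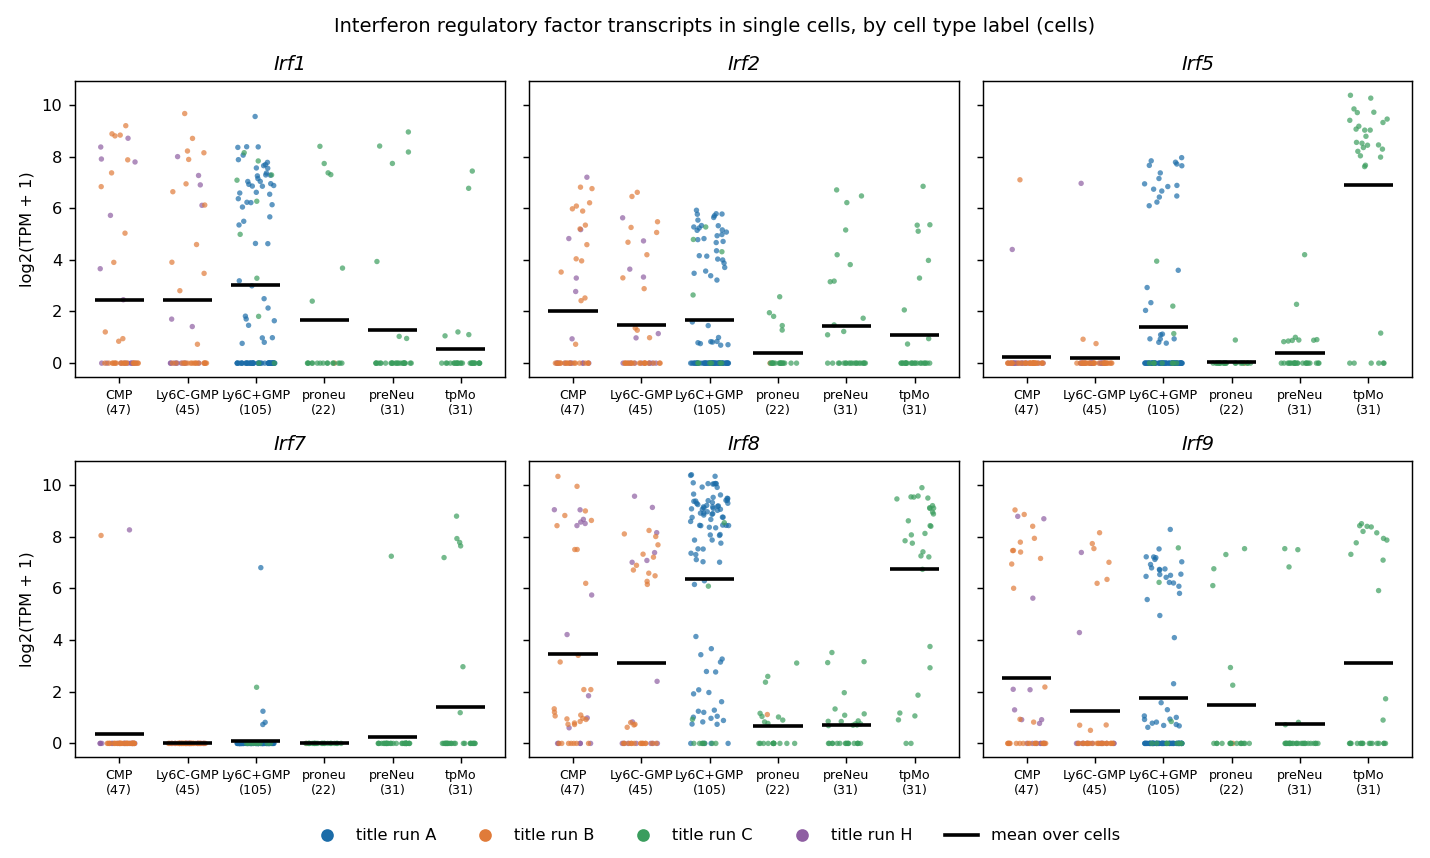
Level of each IRF gene, as log2(TPM + 1), in every cell (points, coloured by title run) by cell type label, with the mean over cells as a black line; Irf4 is left out, being listed at 0 in every cell. Irf8 points form a low and a high group with 14 cells between 10 and 100 TPM, and Irf5 is high in tpMo cells.

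Irf5 was mainly a tpMo transcript. In the 31 tpMo cells it ranged from 0 to 1324 TPM with a median of 348 TPM, and 24 of the 25 cells that had it were at 100 TPM or more. The mean was 420 ± 353 TPM in tpMo cells, the highest of any of the 7 genes in any label. In Ly6C+GMP cells the mean was 24.1 ± 58.7 TPM, with 26 cells detected (24.8%, interval 16.9 to 34.1%) and 13 at 100 TPM or more. These 13 cells were all in run A, where 23 of 95 cells had Irf5; in run C 3 of 10 had it, none above 14.4 TPM. Elsewhere it was rare: 2 of 47 CMP, 1 of 45 Ly6C-GMP, 0 of 22 proneu and 3 of 31 preNeu cells. The tpMo share, 80.6% (62.5 to 92.6%), had no interval in common with any other label.

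Irf7, the IRF most closely tied to type I interferon induction, was sparse. It was detected in 13 cells in all, of which 7 were tpMo cells. The tpMo values were 444, 243, 219, 199, 146, 6.83 and 1.28 TPM, for a label mean of 40.6 ± 102.3 TPM. The 2 CMP cells with Irf7 had 307 and 264 TPM, the 3 Ly6C+GMP cells had 111, 3.51 and 1.37 TPM, and 1 preNeu cell had 151 TPM. Irf7 was listed at 0 in all Ly6C-GMP and proneu cells. The tpMo share, 22.6% (9.59 to 41.1%), overlapped in interval with those of CMP, proneu and preNeu cells.

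Irf9 was found in every label, in 79 cells (28.1%). The mean was highest in tpMo cells at 96.97 ± 136 TPM, with 13 of 31 cells detected, and in CMP cells at 75.8 ± 143 TPM, with 18 of 47. It was 27.1 ± 55.3 TPM in Ly6C+GMP cells (31 cells), 25.6 ± 65.3 TPM in Ly6C-GMP cells (8 of 45), 24.1 ± 54.7 TPM in proneu cells (6 of 22) and 15.5 ± 49.01 TPM in preNeu cells (3 of 31). The median was 0 TPM in each label, so the means rest on a minority of cells. In shares, 41.9% (24.6 to 60.9%) of tpMo cells stood highest and 9.68% (2.04 to 25.8%) of preNeu cells lowest, and all neighbouring intervals overlapped.

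Irf1 ran the other way from Irf5 and Irf7 in tpMo cells. Its mean was 80.5 ± 158 TPM in CMP, 66.2 ± 150 TPM in Ly6C-GMP, 63.1 ± 110 TPM in Ly6C+GMP, 40.2 ± 90.9 TPM in proneu, 43.5 ± 119 TPM in preNeu and 9.16 ± 35.95 TPM in tpMo cells. It was detected in 52 Ly6C+GMP cells (49.5%, 39.6 to 59.5%) and 5 of 31 tpMo cells (16.1%, 5.45 to 33.7%), and only 2 of those tpMo cells were at 5 TPM or more, at 172 and 108 TPM. Those shares did not overlap in interval. CMP and Ly6C-GMP cells, with 17 of 47 and 18 of 45 detected, lay between. So did proneu cells (6 of 22, 27.3%) and preNeu cells (6 of 31, 19.4%, 7.45 to 37.5%), the latter close to tpMo cells. Each of these other labels overlapped in interval with tpMo cells.

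Irf2 was the lowest of the broadly found genes. No label mean exceeded 18.1 ± 33.9 TPM, the value in CMP cells. Other means were 11.4 ± 26.8 TPM in preNeu, 10.1 ± 21.8 TPM in Ly6C-GMP, 9.81 ± 16.3 TPM in Ly6C+GMP and 8.24 ± 22.7 TPM in tpMo cells. Proneu cells had 0.613 ± 1.31 TPM, with 5 of 22 cells detected and none above 4.94 TPM. The share of proneu cells, 22.7% (7.82 to 45.4%), still overlapped in interval with those of all other labels, the highest being 40.4% (26.4 to 55.7%) in CMP cells.

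Irf4, listed at 0 in every cell, allows a share of up to 1.30%, the upper end of the exact interval. Outside the 7 genes, Irf3, which responds to cytosolic nucleic acid sensing, was found in 184 cells, with label means from 94.2 TPM in proneu to 181 TPM in tpMo cells.

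**Figure D2:**
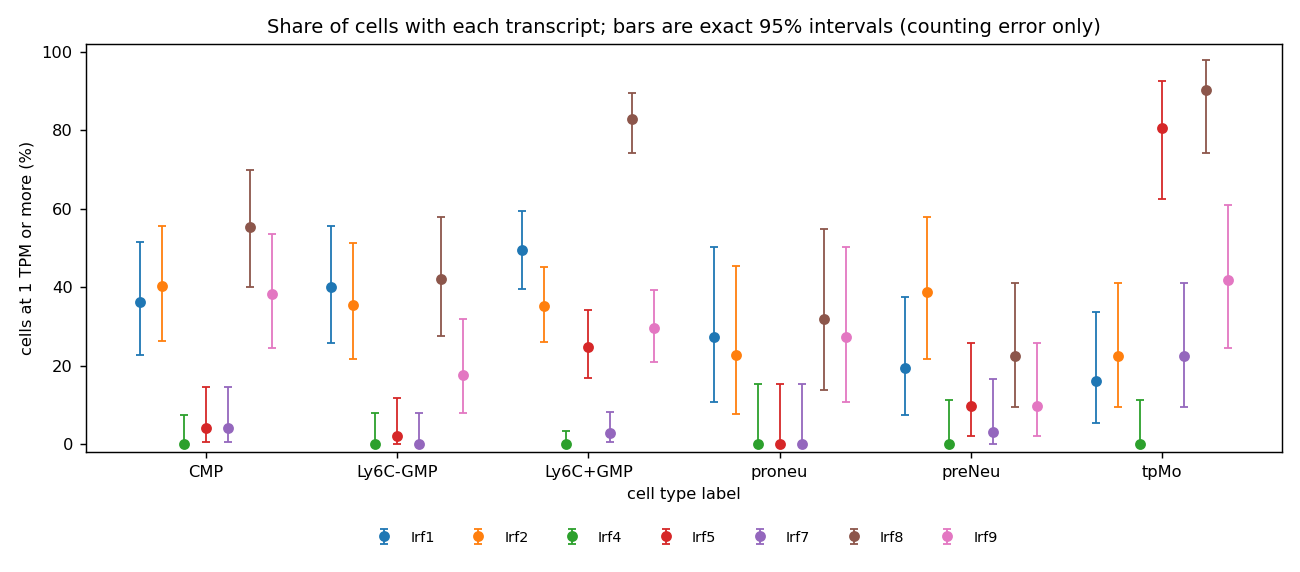
Share of cells, in percent, with each IRF gene at 1 TPM or more in the 6 cell type labels; bars are exact 95% intervals for counting error only. Among the 7 genes shown, Irf8 has the highest share in every label except preNeu, where Irf2 does. Irf5 reaches 80.6% in tpMo cells. Irf3, which is not shown, had higher shares in Ly6C-GMP (71.1%), proneu (63.6%) and preNeu cells (51.6%).

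The comparison of Ly6C-GMP with CMP cells asked what changed with CD16/32. A gene was counted as higher or lower when its mean log2(TPM + 1) differed by at least 1 unit, among genes that averaged at least 1 TPM in one of the labels compared. Of 6 IRF genes measured, 1 was counted: Irf9 was lower in Ly6C-GMP cells by a difference of -1.29, and by -1.36 in run B and -1.17 in run H. Over all genes 16.9% were counted either way (22.9% in run B, 25.9% in run H), and 1 of 6 was near this share. Of the 2126 genes counted, 1964 were higher and 162 lower, and Irf9 was on the lower side. Irf8 differed by -0.36 and Irf2 by -0.52. With only cells that had at least 3000 genes, a limit chosen after seeing the data, they were lower by -1.19 and -1.12. Under that limit 3 of 6 were counted, but the share over all genes was not computed, so this count has no background. The Irf8 partner gene Spi1 was higher by 2.56 in Ly6C-GMP cells, with 325 ± 264 against 192 ± 216 TPM.

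Among interferon receptor and JAK-STAT genes, 4 of 14 were higher and 0 lower, led by the interferon receptor subunits Ifngr2 (1.77, and 0.88 in run H), Ifngr1 (1.58) and Ifnar2 (1.55); in run H 4 of 13 were higher and 1 was lower. Of 25 type I interferon-stimulated genes 4 were higher and 1 was lower, Ifi203, a member of the interferon-inducible HIN-200 family, by -2.13; in run H 3 of 23 were higher and 5 lower. Of the 12 monocyte and dendritic genes linked to IRF8, 3 were higher and 0 lower, and in run H 3 were higher and 2 lower. Among them was Id2, an inhibitor of E proteins, at 1.10, or 0.81 in run H. Over all cells the medians of these lists lay between -0.06 and 0.04, and that of all genes was 0.19. Of all 12582 genes measured, 1964 were higher and 162 lower, and the 4 of 25 higher was near that share. In run H 2090 of 11358 genes were higher and 853 lower.

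The comparison of Ly6C+GMP with Ly6C-GMP cells asked what changed with Ly6C among GMPs. Irf8 was higher by 3.24 and Irf5 by 1.19 in Ly6C+GMP cells, and no IRF gene was lower, so 2 of 6 were counted against 11.2% of all genes. With Ly6C+GMP cells of run A the differences were 3.74 and 1.26 (11.5% of genes counted). With the 10 Ly6C+GMP cells of run C, Irf8 was lower, by -1.56, Irf5 differed by 0.54 and Irf1 was higher by 2.24; 2 of 5 measured IRF genes were counted against 23.3% of all genes. No run held both labels, so the label and the run cannot be told apart here.

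Of the 14 genes linked to IRF8, 6 were higher and 0 lower, and their median difference was 0.77 against 0.12 over all genes. Over all genes 1224 of 12399 were higher and 168 lower. Cybb, which encodes the phagocyte oxidase subunit gp91phox, was higher by 3.93, Ly86, the MD-1 partner of the receptor RP105, by 3.45 and Csf1r, the receptor for macrophage colony-stimulating factor, by 1.81. With run C cells of Ly6C+GMP the list gave 2 higher and 1 lower of 11, with a median of -0.30, and Csf1r stood at -0.30. With these cells 1977 of 11868 genes were higher and 788 lower. Cybb was still higher there, by 2.72.

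Of 18 sensors and adaptors upstream of IRF3, IRF5 and IRF7, 5 were higher and 0 lower, against 1224 higher and 168 lower of 12399 genes. Unc93b1, which carries endosomal Toll-like receptors to their compartment, had a mean of 144 ± 203 TPM in Ly6C-GMP cells and 463 ± 291 TPM in Ly6C+GMP cells, a difference of 3.70, and of 2.57 with run C cells. Myd88, the adaptor of most Toll-like receptors, was higher by 1.61 but stood at -0.19 with run C cells. The 26 type I interferon-stimulated genes moved little, with 1 higher (Ifit2, 1.17) and 1 lower (Lgals3bp, -1.28), and of 19 interferon gamma and IRF1 targets 1 was higher (Gbp3, 1.41). With run C cells these lists gave 3 higher and 2 lower of 21, and 2 higher and 3 lower of 19. Over all genes 1977 of 11868 were then higher and 788 lower.

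The comparison of proneu with Ly6C+GMP cells asked how proneu cells differ inside one gate. All 4 IRF genes counted, of 6 measured, were lower in proneu cells: Irf8 by -5.67, Irf1 by -1.35, Irf5 by -1.34 and Irf2 by -1.25. Over all genes 18.1% were counted, with a median difference of -0.23. Within run C, Irf1 stood at -2.92 and Irf2 at -1.27, while Irf8 at -0.90 and Irf5 at -0.69 were within 1 unit; 2 of 5 were counted against 26.7% of all genes. Irf8 thus passed 1 unit over all cells and not within run C; run A held no proneu cell.

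Of 14 genes linked to IRF8, 6 were lower and 0 higher in proneu cells, with a median of -0.72. In run C 3 of 10 were lower and 1 was higher, with a median of -0.32. Over all genes 1918 of 12026 were lower, and 2336 of 11031 within run C. Ly86 differed by -4.45 (-1.75 in run C), Csf1r by -3.15 (-1.02 in run C) and Ccr2, a chemokine receptor of monocytes, by -2.50 (-1.71 in run C). Of 19 interferon gamma and IRF1 targets, 8 were lower and 0 higher, with a median of -0.47; in run C 6 of 14 were lower and 0 higher, with a median of -0.29 against -0.27 over all genes. They included Psmb10 and Psmb8, subunits of the immunoproteasome, at -2.60 and -1.75, and the guanylate-binding protein gene Gbp3 at -2.28. In run C these 3 genes stood at -3.29, -1.66 and -2.33. Over all cells 3 of the 5 genes listed as neutrophil regulators were higher, against 264 of 12026 genes. They were Per3 at 2.96, Gfi1, a repressor that favours granulocytes over monocytes, at 2.19, and Cebpe at 1.49. Within run C all 6 regulators measured stayed inside 1 unit. Per3 stood there at 0.19, Gfi1 at 0.09 and Cebpe at -0.30.

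The comparison of preNeu with proneu cells followed the neutrophil side. Irf2 was higher in preNeu cells by 1.02 and was the single IRF gene counted of 5 measured, against 43.4% of all genes (43.7% within run C, where Irf2 stood at 1.00). Irf8 differed by 0.02 and remained low in both labels. Without the highest cell of each label no IRF gene was counted. PreNeu cells had the fewest detected genes and the median of all genes was -0.68, a shift whose part in these differences was not tested.

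Over all genes 4377 of 10991 were lower in preNeu than in proneu cells, and the lists are read against that. Of 15 interferon gamma and IRF1 targets, 11 were lower and 0 higher, with a median of -1.41, and H2-K1, a class I major histocompatibility gene, went from 935 ± 468 to 339 ± 447 TPM. Of 12 interferon receptor and JAK-STAT genes 7 were lower and 1 was higher, with a median of -1.36. Ifngr1, the ligand-binding chain of the interferon gamma receptor, averaged 141 ± 187 TPM in preNeu and 931 ± 558 TPM in proneu cells, a difference of -5.64. Of 19 type I interferon-stimulated genes 7 were lower and 0 higher, near the share over all genes. Their median was -0.34, against -0.68 over all genes. Lgals3bp, at -3.26, and Bst2, at -3.06, were among those lower and were listed at 0 in every preNeu cell. Of 9 genes linked to IRF8, 4 were lower and 2 higher in preNeu cells, with Cybb higher by 5.71.

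The comparison of tpMo with Ly6C+GMP cells followed the monocyte side. Irf5 was higher in tpMo cells by 5.53, Irf9 by 1.35 and Irf7 by 1.29, and Irf1 was lower by -2.46, so 4 of 6 were counted against 36.1% of all genes. The median of all genes was -0.50, and most genes counted were lower: 3968 of 4353, where 3 of the 4 IRF genes counted were higher. Irf8 differed by 0.41. Within run C 5 of 6 were counted, 4 higher and 1 lower: Irf5 at 6.19, Irf8 at 5.20, Irf9 at 1.65, Irf7 at 1.19 and Irf1 at -4.10, against 42.8% of all genes. Irf8 was therefore within 1 unit between the labels over all cells and higher in tpMo cells within run C. With only cells that had at least 3000 genes, a limit chosen after seeing the data, Irf8 was higher by 1.62 and Irf7 stood at 0.79.

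Genes linked to IRF8 were higher in tpMo cells in 8 of 15 cases and lower in 0, with a median of 1.46. In run C 12 of 13 were higher, with a median of 2.39. Over all genes 385 of 12057 were higher and 3968 lower, and in run C 654 of 11107 were higher and 4104 lower. Ctss, a lysosomal protease of antigen-presenting cells, differed by 6.602, Ccr2 by 5.61 and Id2 by 3.29. Type I interferon-stimulated genes were mixed: 3 of 26 were higher, led by Ifi27l2a at 4.05, and 4 were lower, with Ifi47 at -3.65; in run C 7 of 22 were higher and 7 lower. Of 19 interferon gamma and IRF1 targets 8 were lower and 0 higher, with a median of -0.54, near that of all genes, where 3968 of 12057 were lower; in run C 6 of 17 were lower and 1 was higher. Among them Gbp3 stood at -2.85 and the peptide transporter gene Tap2 at -2.66. Of 19 sensors and adaptors 8 were lower and 1 was higher, with a median of -0.75 (6 lower and 2 higher in run C), and Myd88 stood at -2.20, or -0.40 within run C.

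The comparison of tpMo with preNeu cells set the monocyte and neutrophil sides against each other within run C. Irf5 was higher in tpMo cells by 6.50, Irf8 by 6.06, Irf9 by 2.36 and Irf7 by 1.17, so 4 of 6 IRF genes were counted, all higher, against 30.8% of all genes and a median of 0.36. Irf1 and Irf2 were within 1 unit, at -0.70 and -0.35. This comparison shares its tpMo cells with the previous one.

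Over all genes 2848 of 10826 were higher in tpMo than in preNeu cells and 490 lower, and the lists are read against that. Type I interferon-stimulated genes were higher in 10 of 21 cases and lower in 0, with a median of 0.89. Samhd1, which depletes nucleotides for viral replication, was higher by 4.47 and the restriction factor gene Trim30a by 3.36. Ifi27l2a, at 217 ± 378 TPM in tpMo cells, was listed at 0 in every preNeu cell. Of 17 interferon gamma and IRF1 targets 8 were higher and 0 lower, with Psmb8 at 5.29. Of 13 genes linked to IRF8, 10 were higher and 2 lower, and the list's median was 3.42; Csf1r and Ccr2 belong both to this list and to the monocyte markers, and CD115, the product of Csf1r, was part of the tpMo gate. Spi1 was higher by 2.04.

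**Figure D3:**
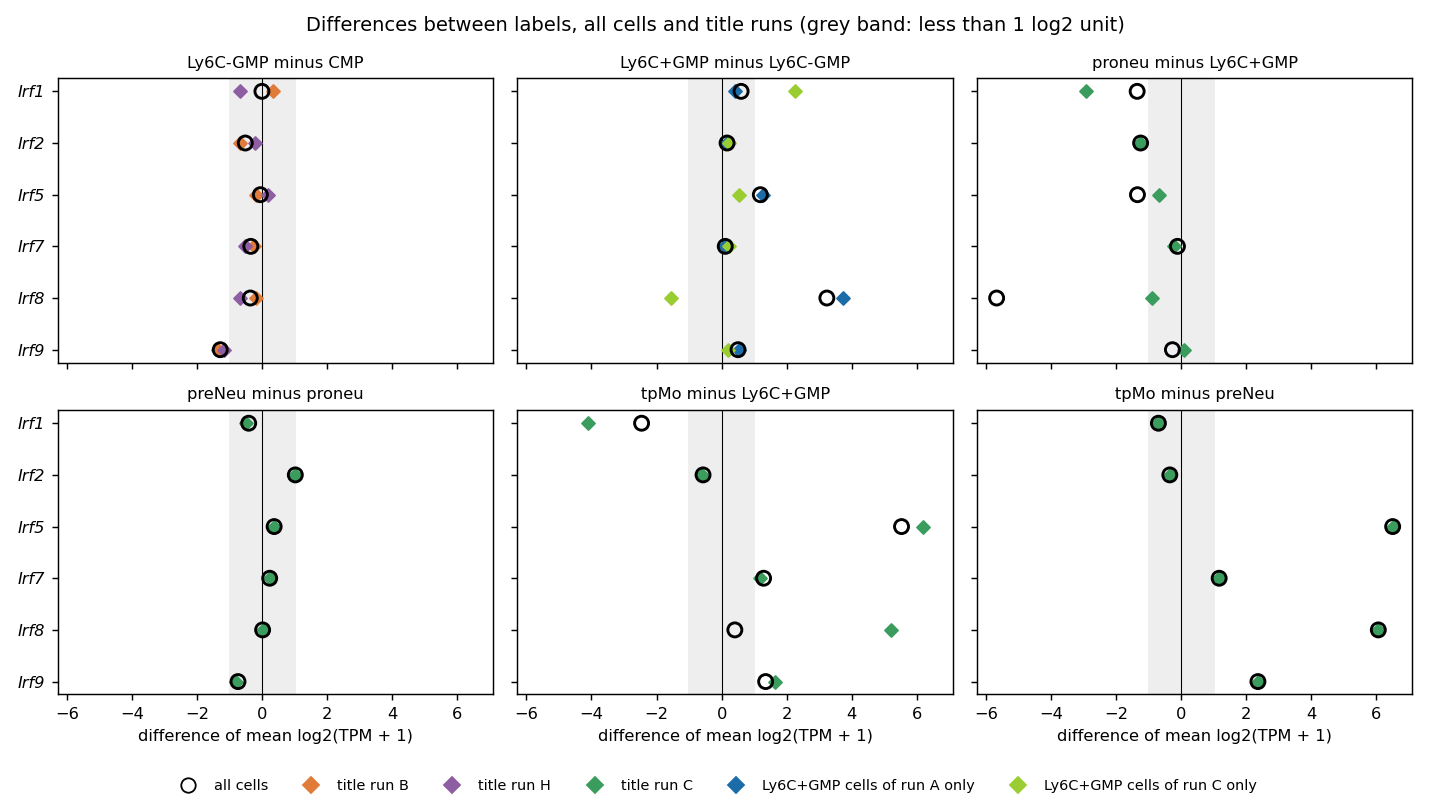
Difference of mean log2(TPM + 1) for 6 IRF genes in each of the 6 comparisons, over all cells (open circles) and within title runs or with Ly6C+GMP cells of 1 run (diamonds); the grey band marks less than 1 unit. For Irf8 in Ly6C+GMP minus Ly6C-GMP the run A value is 3.74 and the run C value -1.56; tpMo minus preNeu lies wholly in run C.

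The 9 interferon genes looked up, among them Ifnb1, Ifng and Ifna4, were listed at 0 in every cell. So were the PU.1 relative Spib, the sensor gene Tlr3 and the cytokine gene Il12b. A gene listed at 0 may lie below what these libraries can show.

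**Figure D4:**
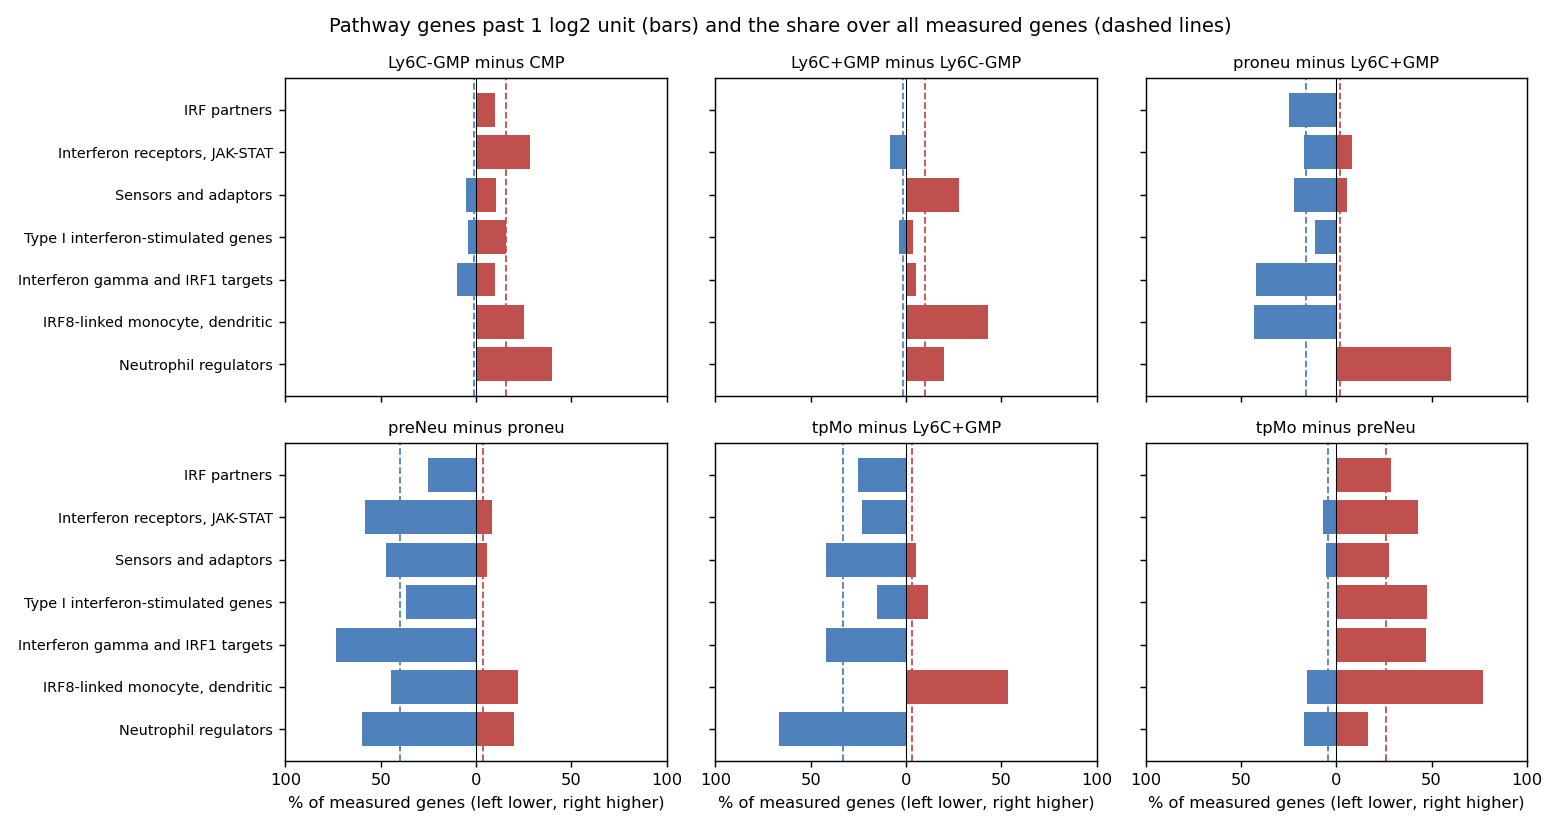
Share of the measured genes of each pathway list that were at least 1 log2 unit lower (blue, left) or higher (red, right) in the 6 comparisons, with the shares over all measured genes as dashed lines. In tpMo minus Ly6C+GMP, 8 of 15 genes linked to IRF8 were higher and 0 lower, while most other lists lay to the lower side.

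The number of IRF genes found per cell also differed by label. The median was 3 in tpMo cells, 2 in CMP and Ly6C+GMP cells and 1 in Ly6C-GMP, proneu and preNeu cells. At least 3 were found in 18 of 31 tpMo cells, 41 Ly6C+GMP cells (of 95 in run A and 10 in run C) and 13 of 47 CMP cells, and in 3 Ly6C-GMP, 1 proneu and 0 preNeu cells. None was found in 8 of 22 proneu, 6 of 31 preNeu and 7 of 45 Ly6C-GMP cells. The same held for 4 CMP, 4 Ly6C+GMP and 0 tpMo cells. The median number of all detected genes was 3082 in tpMo and 3489 in CMP cells and higher in Ly6C-GMP cells; its part in these counts was not tested.

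Irf5 and Irf8 were found together in many cells that had Irf5, mostly in labels where Irf8 was common. Among tpMo cells 22 of 31 had both, 3 had Irf5 alone, 6 had Irf8 alone and 0 had neither; Irf8 was in 22 of the 25 cells with Irf5 and in 28 of all 31. Among Ly6C+GMP cells 23 of the 26 cells with Irf5 also had Irf8, where Irf8 was found in 82.9% of cells of this label. The 3 CMP and Ly6C-GMP cells with Irf5 all had Irf8 too, at 1294, 408 and 166 TPM, whereas 0 of the 3 preNeu cells with Irf5 had Irf8. The converse did not hold in CMP cells, where 26 cells had Irf8 and 2 had Irf5.

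**Figure D5:**
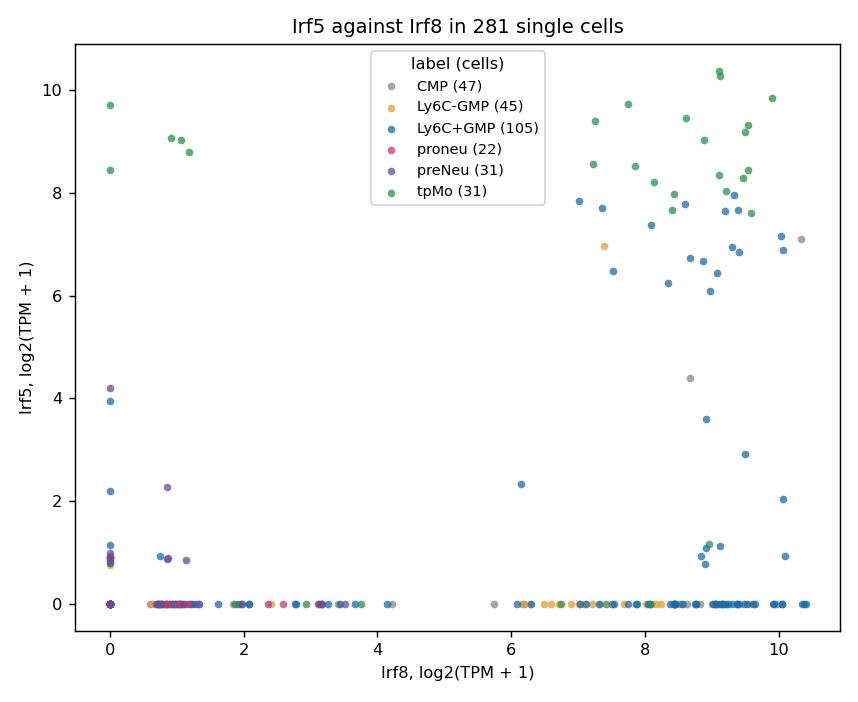
Irf5 against Irf8 in each cell, both as log2(TPM + 1), coloured by cell type label. Of the 25 tpMo cells with Irf5, 22 also have Irf8 at 1 TPM or more, Ly6C+GMP cells spread along the Irf8 axis with Irf5 in 24.8% of them, and proneu and preNeu cells lie at low values of both.

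Patterns like those of the IRF genes were ranked by Pearson's r of log2(TPM + 1) over all cells, among 8917 genes. These values share the cells, their labels and their depth, and describe likeness only. Irf8 was most like Ly86 (r = 0.72), Ms4a6c (0.72), F13a1 (0.70), Pyhin1 (0.68) and Emb (0.64). Irf5 was most like Fn1 (0.65), Ahnak (0.61), Ccdc109b (0.58), Pld4 (0.58) and S100a6 (0.56). None of these was among the 5 genes most like Irf5 in the 95 Ly6C+GMP cells of run A, where Mmab (0.38) led. Fn1, which encodes fibronectin, averaged 594 TPM in tpMo and at most 1.88 TPM in other labels, the same order of labels at the top as Irf5. F13a1, a transglutaminase gene of monocytes, averaged 1915 TPM in tpMo, 480 TPM in Ly6C+GMP and 0.854 TPM in preNeu cells. For Irf1, Irf2 and Irf9 no gene exceeded an r of 0.30, which is no finding in data this sparse.

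Within the 95 Ly6C+GMP cells of run A, which share 1 label and 1 run, Irf8 was most like Ms4a6c (r = 0.81), Itpripl1 (0.81), Ly86 (0.79), Ly6e (0.76) and Rassf4 (0.74), among 7013 genes. Its lowest r was with Wfdc21 (-0.75). In this set 67 cells were at 100 TPM of Irf8 or more, 4 between 10 and 100 TPM and 24 below 10 TPM. Ms4a6c and Ly86 were among the 5 genes most like Irf8 both over all cells and within this label and run. The run A cells are part of all cells, so the rankings are not separate. Reads of near-identical Ms4a6 genes are divided by estimate, so the value of Ms4a6c is uncertain.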

How the data were processed

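Single cells were profiled by SMART-seq2 with paired-end reads on an Illumina HiSeq instrument, per the labels' protocols. The authors deposited TPM values for 281 cells in 1 table. RSEM 1.2.19 and the build GRCm38 were used, per the submitters' processing notes; annotation and filters are not given in the sources consulted. TPM is relative within a cell, so an abundant transcript lowers the others, read depth is unknown, and there were no molecular identifiers.

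The log2(TPM + 1) values were averaged over the cells of a label and the averages subtracted, a scale that understates changes of low genes. Genes averaging 1 TPM or more in one of the labels were used, and 1 log2 unit counted as higher or lower. The code was tested on simulated data. The IRF genes, the 8 pathway lists and the comparisons were chosen with earlier results of these data known. Of each list and comparison, up to 3 genes with the largest absolute difference and at least 5 TPM in the higher label could be named; which of these to describe was chosen by function, with their values known. Likeness used genes detected in at least 20 cells, leaving out other IRF and predicted genes, for IRF genes detected in at least 20% of cells, and the 5 highest r were eligible. Of 24 sensor symbols 21 were in the table. Some genes of the lists are not reported here. Cells were neither clustered nor filtered, and doublets were not called. Alternatives were other pseudocounts (10 and 0.1 TPM), no filter, the ratio of mean TPM, 2 rescalings, leaving out the highest cell, single title runs, other detection limits and, chosen after seeing the data, cells with at least 3000 genes and detection at 10 TPM. Python 3.11.15 with pandas 2.3.3, numpy 2.4.6 and scipy 1.17.1 was used.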

Additional observations from a re-analysis of the deposited data

How the results depend on the processing

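Of 312 recomputed IRF differences, 279 kept their sign and their side of 1 log2 unit, 15 fell inside it and 8 moved past it. Sign changed in 10: 9 that were within 1 unit both ways, and 1 that was past it, Irf8 in Ly6C+GMP minus Ly6C-GMP, at -1.56 with Ly6C+GMP cells of run C. The number of IRF genes counted stayed within 1.5 times in 43 of 54 recomputed counts. With a pseudocount of 10 TPM it went to 0 from 1 (Ly6C-GMP minus CMP), to 1 from 2 (Ly6C+GMP minus Ly6C-GMP), to 1 from 4 (proneu minus Ly6C+GMP), to 0 from 1 (preNeu minus proneu) and to 2 from 4 (tpMo minus Ly6C+GMP). The ratio of mean TPM gave 2 for Ly6C-GMP minus CMP and 2 for preNeu minus proneu, and a pseudocount of 0.1 TPM gave 2 for the latter. Leaving out the highest cell gave 0 for preNeu minus proneu, run C alone gave 2 for proneu minus Ly6C+GMP, and cells with at least 3000 genes gave 3 for Ly6C-GMP minus CMP (Irf9, Irf8 and Irf2). That last limit left too few preNeu cells for their comparisons. Apart from single title runs, the share over all genes was not recomputed under these alternatives. The causes were not tested. No paired analysis was possible because no result comes from a test and replicate numbers only name cells. Of 217 recomputed shares of cells, 20 left their 95% interval.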

Other observations

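Irf8 was below 10 TPM in 7 of the 31 tpMo cells. Of the 5 tpMo cells with Irf7 at 100 TPM or more, 1 had Irf8 above 10 TPM, at 344 TPM; the others had 6.61, 1.09, 0 and 0 TPM of Irf8, and 3 of those 4 had Irf5, at 831, 519 and 348 TPM. Over the 31 tpMo cells r was -0.56 between log2(TPM + 1) of Irf7 and Irf8. Outside tpMo cells 4 cells had Irf7 at 100 TPM or more: the 2 CMP cells had 990 and 379 TPM of Irf8, the Ly6C+GMP cell had 667 TPM and the preNeu cell had 0.69 TPM. These cells were singled out after their values were seen, and nothing was tested.

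Ddx58, the gene of the RNA sensor RIG-I, was detected in 6 of 22 proneu cells and in 6 Ly6C+GMP cells (of 95 in run A and 10 in run C), with means of 45.2 ± 100 and 2.56 ± 17.4 TPM. The difference was 1.49 over all cells and 0.84 within run C.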
